A study of Mus musculus with 6 samples.

Results

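The genes described here are 40 genes of G2 phase and mitosis, from the cyclins and Cdk1 that start the division to the proteins that split the daughter cells, and they were taken by gene symbol from a table of 21825 genes. All 40 were in the table and all 40 passed the filter on low counts. They were measured in group 2 innate lymphoid cells (ILC2s), lymphocytes of tissues that respond to alarm cytokines without a rearranged antigen receptor. Lungs came from 6-week-old BALB/c animals after 3 intraperitoneal injections of IL-33 at 1 µg, and the ILC2s were sorted from them. Culture lasted 48 h, with IL-7 and IL-2 at 10 ng/mL each and with TNFa at 40 ng/mL (3 libraries, replicates 4 to 6) or PBS (3 libraries, replicates 1 to 3). Both groups thus carry the IL-33 given in vivo and the IL-2 and IL-7 of the culture, and TNFa is the only labelled difference. PBS replicate 2 is labelled a repeat. Nothing in the labels ties a library to its own culture or animal, so the p-values below cover only the variation among these 6 libraries.

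A cell enters mitosis when Cdk1, bound to cyclin A or cyclin B, becomes active, and leaves it when the anaphase-promoting complex (APC/C), a ubiquitin ligase, has the cyclins and securin destroyed. Between these steps the kinetochores attach chromosomes to the spindle while a checkpoint holds the APC/C back, and afterwards the central spindle and a contractile ring divide the cytoplasm. The genes of this programme are switched on together late in the cycle, and many are bound at their promoters by the MuvB complex, which acts as a repressor in the resting cell (as DREAM) and as an activator with B-Myb and Foxm1 in the dividing one. MuvB recognises a short element called the cell cycle genes homology region, or CHR, and the neighbouring CCAAT boxes are bound by NF-Y. In lymphocytes the level of these transcripts is used as a measure of how much of a population is dividing.

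Many promoters of the mitosis genes held the letters of these elements. RefSeq promoter windows (build GRCm38.p6, the assembly that mm10 names; 250 bases before to 50 bases after the gene start) were matched by symbol for 34 of the 40. The CHR core TTTGAA, searched on both strands, was in 23 of the 34 (67.6%), against 15.3% of the 10484 tested genes with a window. The CCAAT core, also on both strands, was in 24 of 34 (70.6%), against 42.8%, and both were in 20 of 34 (58.8%), against 6.19%. A CCAAT match and a TTTGAA match can share at most 1 end base, and each match is a description of letters, not of a bound site. A TTTGAA starting within 50 bases of the gene start was found for 21 of the 34 (61.8%), against 4.02% of tested genes. The share was 43.9% of 82 further mitosis genes with a window and 7.5% of 40 DNA replication and S phase genes, although CCAAT was nearly as frequent in the S phase genes (62.5%). By function, all 6 midzone and cytokinesis genes with a window held TTTGAA near the start. Neither core was in the windows of Birc5, Mad2l1, Melk, Ncaph, Nuf2, Nusap1 and Pttg1.

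The 4 windows below are shown because their genes are those with both cores whose TNFa and PBS levels were farthest apart by p-value; capitals mark TTTGAA and CCAAT on either strand (TTCAAA and ATTGG on the other).
Cdc20, chr4:118437294-118437593, minus strand: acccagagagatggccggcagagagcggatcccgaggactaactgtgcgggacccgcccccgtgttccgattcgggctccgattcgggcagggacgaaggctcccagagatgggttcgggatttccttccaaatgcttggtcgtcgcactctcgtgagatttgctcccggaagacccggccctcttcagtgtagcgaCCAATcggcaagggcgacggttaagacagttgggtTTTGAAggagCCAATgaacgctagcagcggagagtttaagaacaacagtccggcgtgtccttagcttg
Bub1b, chr2:118597961-118598260, plus strand: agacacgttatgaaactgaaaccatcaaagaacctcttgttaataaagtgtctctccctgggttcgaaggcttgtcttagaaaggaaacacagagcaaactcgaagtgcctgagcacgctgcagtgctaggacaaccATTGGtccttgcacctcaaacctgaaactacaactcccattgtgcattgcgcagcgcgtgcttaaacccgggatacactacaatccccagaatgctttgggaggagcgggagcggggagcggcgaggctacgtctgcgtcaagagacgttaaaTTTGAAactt
Plk1, chr7:122159185-122159484, plus strand: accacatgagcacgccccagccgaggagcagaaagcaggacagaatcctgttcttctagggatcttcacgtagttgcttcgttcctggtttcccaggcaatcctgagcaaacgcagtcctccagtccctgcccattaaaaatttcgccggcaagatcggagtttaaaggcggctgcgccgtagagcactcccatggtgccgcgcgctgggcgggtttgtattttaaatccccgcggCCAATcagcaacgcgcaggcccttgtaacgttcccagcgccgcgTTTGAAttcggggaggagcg
Ccnb2, chr9:70421505-70421804, minus strand: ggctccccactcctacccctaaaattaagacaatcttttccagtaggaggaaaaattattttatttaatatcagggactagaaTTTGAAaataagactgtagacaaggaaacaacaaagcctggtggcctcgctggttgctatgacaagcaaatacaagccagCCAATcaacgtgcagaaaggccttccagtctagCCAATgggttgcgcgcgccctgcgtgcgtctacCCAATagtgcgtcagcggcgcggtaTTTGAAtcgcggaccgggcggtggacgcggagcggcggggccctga
In Cdc20 the TTTGAA begins 18 bases before the start and lies between a CCAAT at -53 and one at -8. In Ccnb2 3 CCAAT cores at -87, -54 and -21 precede a TTTGAA at position 5 of the transcript, and a second TTTGAA lies farther away at -167. In Plk1 a CCAAT at -14 precedes a TTTGAA at 31. In Bub1b the only CCAAT core reads on the opposite strand, at -113, and the TTTGAA stands at 41. The median log2 fold change, TNFa over PBS, was the same to 2 decimals with and without both cores. It was -0.10 over the 20 with both (range -0.28 to 0.20) and -0.10 over the 14 without both (range -0.30 to 0.18). Foxm1, Ccna2, Aurkb, Tpx2, Dlgap5 and Kif20a had no window and are not in this comparison. Among them are the members with the smallest p-values, Foxm1 (log2 fold change -0.41) and Aurkb (-0.27).

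**Figure D1:**
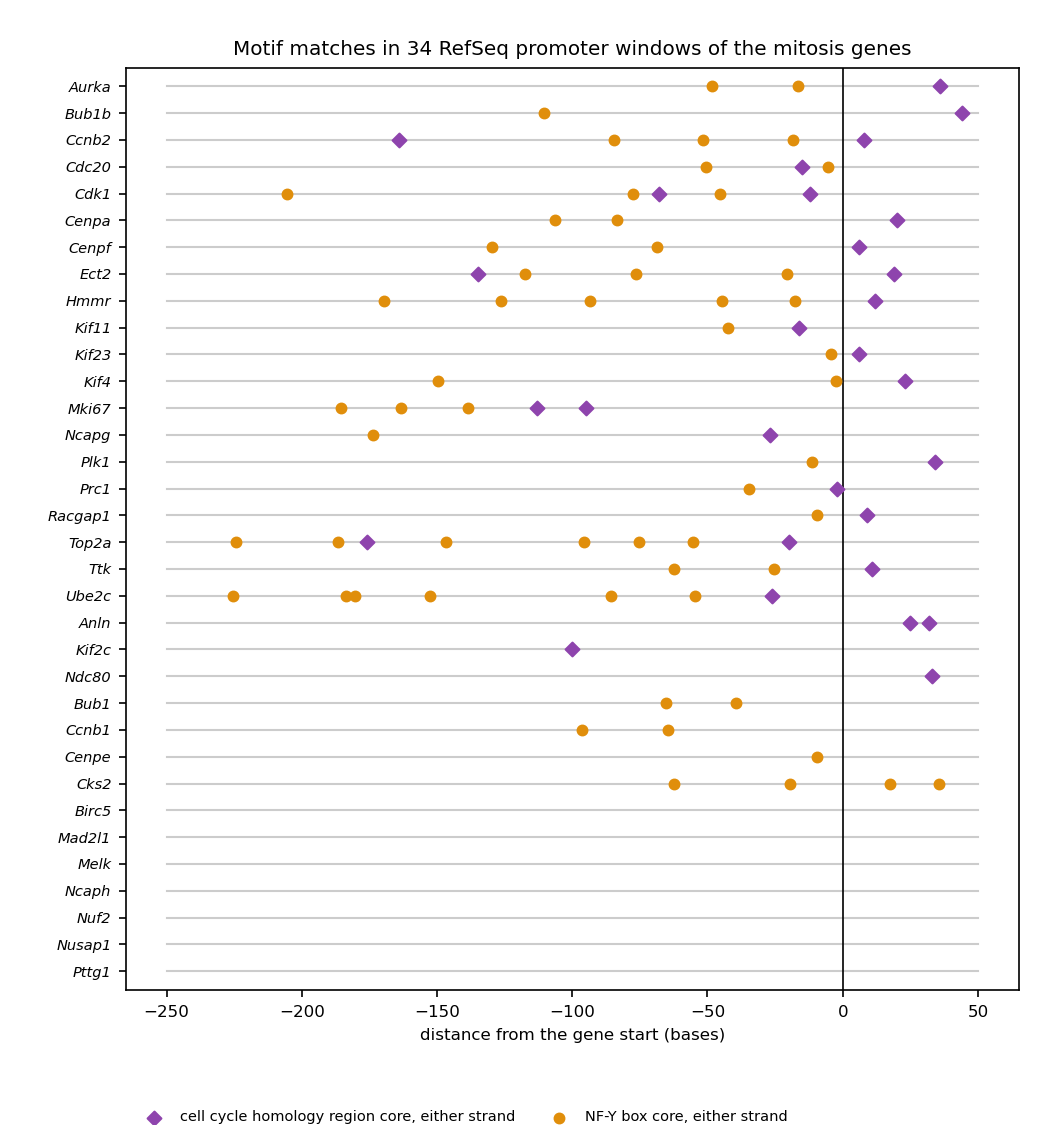
Matches to the CHR core (diamonds) and to the NF-Y box core (circles) in the RefSeq promoter windows of 34 mitosis genes, each marked at its middle by distance from the gene start in bases, with genes holding both cores at the top. The diamonds gather within 50 bases of the start in 21 of the 34 genes, with the circles mostly upstream of them.

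The mitosis genes were abundant in both groups. The 6 libraries held 25089415 to 32487004 estimated counts. The 40 together took 0.818%, 0.737% and 0.821% of all counts in TNFa replicates 4, 5 and 6, and 0.838%, 0.822% and 0.882% in PBS replicates 1, 2 and 3. The lowest single value was 1212 estimated counts (Anln) and the highest 22424 (Top2a), so counting error was at most 2.87% of a value and the spread between libraries set the precision. The sum of the 40 was 8111, 7604 and 8070 CPM (the count relative to library size, scaled by the TMM method) in TNFa replicates 4, 5 and 6. It was 8635, 8163 and 8626 CPM in PBS replicates 1, 2 and 3, so each TNFa sum lay below each PBS sum, by a narrow margin for replicate 4. TNFa replicate 5 stood apart from the others: its mean correlation with them over all tested genes was 0.949, against 0.964 to 0.967 for the rest. Per kilobase of transcript, the median member stood at the 85.5th percentile of the 12450 tested protein-coding genes with a length, and members ran from the 57.4th (Cenpf) to the 98.6th (Ube2c).

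On that per-length scale the 3 most abundant were Ube2c, Birc5 and Cks2. Ube2c, the ubiquitin-conjugating enzyme of the APC/C, averaged 402 CPM per kilobase with TNFa and 466 with PBS. Birc5 (survivin), a subunit of the chromosomal passenger complex, averaged 356 with TNFa and 381 with PBS. Cks2, a small subunit bound to Cdk1, averaged 213 with TNFa and 199 with PBS. The order at the top was therefore the same in both groups. The least abundant per kilobase were Cenpf, a large kinetochore protein (12.3 with TNFa, 10.7 with PBS), and Anln, anillin of the contractile ring (11.6 with TNFa, 14.3 with PBS). These 2 stood in opposite order in the groups, and neither gene's difference passed the test (edgeR adjusted p = 0.771 for Cenpf and 0.652 for Anln).

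**Figure D2:**
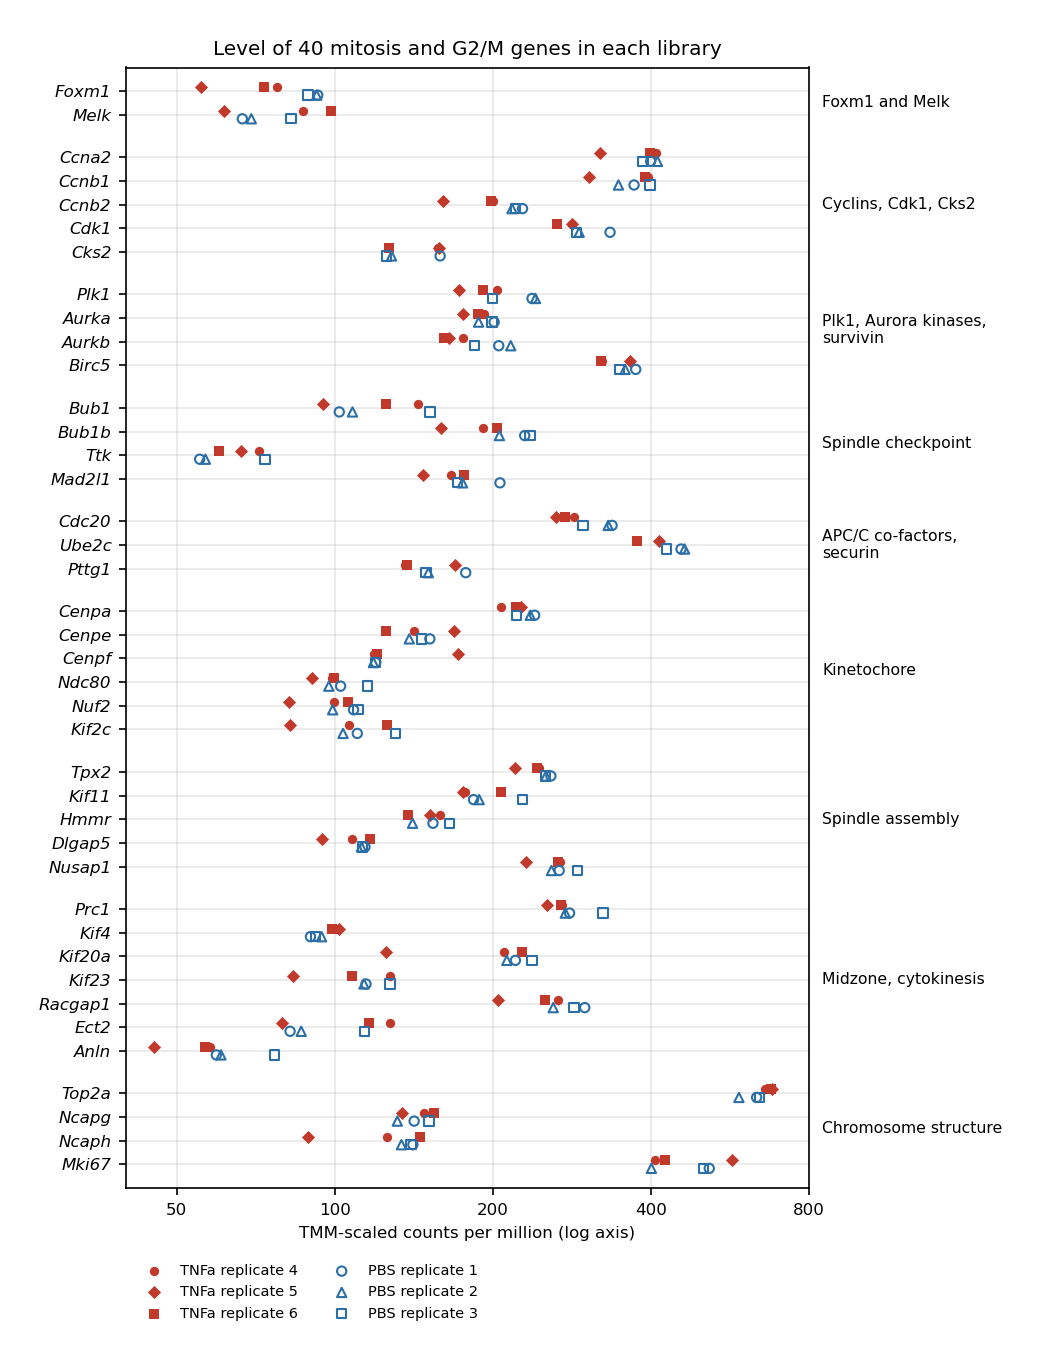
TMM-scaled CPM (log axis) of the 40 genes in each of the 6 libraries, grouped by function, with TNFa as filled red and PBS as open blue symbols. Most genes have the groups intermingled or nearly touching, and TNFa replicate 5 (red diamonds) is the lowest point of 25 genes.

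The comparison of TNFa with PBS asked whether the cytokine altered this programme. No member passed edgeR's quasi-likelihood test (0 of 40 at an adjusted p under 0.05, Benjamini-Hochberg over 15719 genes, of which 0.102% passed); the smallest adjusted p was 0.435. DESeq2 called 0 of 40 (1.39% of all tested genes), with 4 lower (4.98%) and 0 higher (4.49%) at an unadjusted p under 0.05. Limma's voom with sample quality weights also called 0 of 40 (0.496%), with 5 lower (6.88%) and 2 higher (6.16%). In edgeR 4 members had an unadjusted p under 0.05 and lay lower with TNFa, 10.0% of the 40 against 4.63% of all tested genes, and 0 lay higher, against 3.68%. With 1 library left out the count lower was 1 without PBS replicate 1, 2 without PBS replicate 2 or without TNFa replicate 6, and 4 without any of the others. Log2 fold changes were negative for 31 of 40 (77.5%; 49.4% of all tested genes), with a median of -0.10 beside 0.01 for all tested genes. They ran from -0.41 for Foxm1 to 0.20 for Cenpf. The members were measured in the same libraries, so these counts are not independent observations. The shares over all tested genes include less abundant genes and were not matched to the members for abundance.

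All 40 of the 95% intervals of the change lay within a 2-fold change in either direction, and 36 lay within 1.5-fold. The lowest bound was for Foxm1, at 0.607 of the PBS level, and the highest for Ect2, at 1.53 times it. In 10 members each TNFa library was below each PBS library (25% of the 40; 8.35% of all tested genes), and in 2 members each was above (6.85% of all tested genes). The 10 were Foxm1, Ccnb2, Cdk1, Aurkb, Bub1b, Cdc20, Ube2c, Tpx2, Prc1 and Anln, and the 2 were Kif4 and Top2a. In bulk RNA fewer cells in mitosis and less mitotic RNA per cell cannot be told apart.

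**Figure D3:**
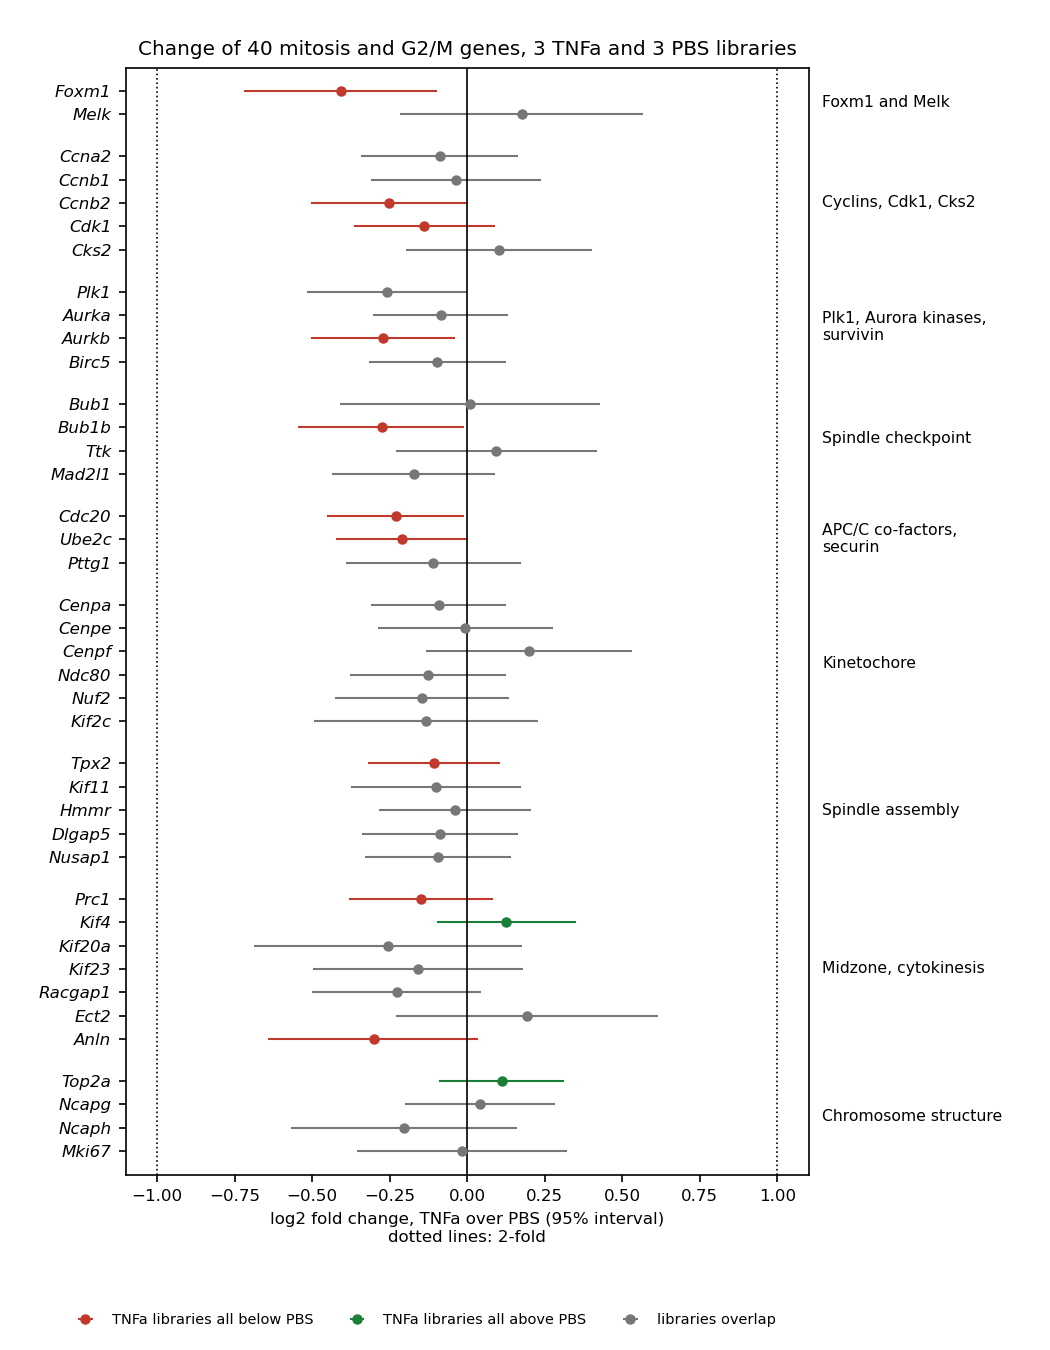
Log2 fold change, TNFa over PBS, of each of the 40 genes with its 95% interval, coloured by whether the 3 TNFa and 3 PBS libraries overlap. Point estimates lie between -0.41 and 0.20 and no interval reaches the dotted lines at 2-fold.

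Foxm1, the transcription factor that activates mitotic genes late in the cycle, had the smallest p of the 40. It is encoded on chromosome 6 (mm10, 128362967 to 128376146, plus strand). It stood at 77.5, 55.7 and 73.3 CPM in TNFa replicates 4, 5 and 6, against 92.8, 92.4 and 88.9 CPM in PBS replicates 1, 2 and 3. The groups did not overlap, the PBS libraries lay close together and TNFa replicate 5 was the lowest. The log2 fold change was -0.41 ± 0.14 (SE; edgeR adjusted p = 0.435), and without TNFa replicate 5 it was -0.28 ± 0.10 (adjusted p = 0.336). Melk, a kinase expressed with the mitotic genes, had a log2 fold change of 0.18 ± 0.17. The other activator and repressor parts of the MuvB system were examined as a list of 16 DREAM, MuvB and NF-Y genes. None passed (0.102% of all tested genes did). Their median was -0.08 with 10 of 16 negative, and 0.03 with 6 negative without TNFa replicate 5. The smallest p-values were those of Lin37, a MuvB subunit (log2 fold change -0.23), Mybl2, which encodes B-Myb (-0.19), and E2f4, the repressor E2F (-0.13).

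None of the cyclins, Cdk1 and Cks2 passed the test. Ccnb2, cyclin B2, stood at 200.2, 161 and 199 CPM with TNFa, against 228, 218 and 221 CPM with PBS, without overlap (log2 fold change -0.25 ± 0.11, adjusted p = 0.604 in edgeR; -0.16 without TNFa replicate 5). Ccnb1, the cyclin B that is essential for mitosis in mice, stood at 395, 305 and 391 CPM with TNFa, against 372, 347 and 399 CPM with PBS, so that 2 TNFa libraries lay inside the PBS range (log2 fold change -0.04 ± 0.12). Ccna2, cyclin A2, had a log2 fold change of -0.09 ± 0.11, and Cdk1, their kinase, of -0.14 ± 0.10. Cks2 stood at 158, 158 and 127 CPM with TNFa, against 159, 128 and 126 CPM with PBS (log2 fold change 0.10 ± 0.13). Its groups had almost the same range.

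Of the function groups, only the kinases and the APC/C partners had summed levels that were separate between TNFa and PBS. The sums of all the others overlapped. Those of the cyclins, Cdk1 and Cks2 were 1228 to 1444 CPM with TNFa and 1398 to 1494 CPM with PBS. Aurkb, the Aurora kinase of the chromosomal passenger complex, stood at 176, 165 and 162 CPM with TNFa, against 205, 217 and 185 CPM with PBS (log2 fold change -0.27 ± 0.10, edgeR adjusted p = 0.509). Plk1, polo-like kinase 1, stood at 204, 172 and 192 CPM with TNFa, against 238, 241 and 200.1 CPM with PBS (-0.26 ± 0.12, adjusted p = 0.601). The groups were separate for Aurkb and met for Plk1, where PBS replicate 3 lay below TNFa replicate 4. Birc5 stood at 323, 365 and 322 CPM with TNFa, against 375, 358 and 349 CPM with PBS (-0.10 ± 0.10), with TNFa replicate 5 inside the PBS range. Aurka, the Aurora kinase of the spindle poles, had a log2 fold change of -0.09 ± 0.10. The 4 genes of this group summed to 895, 878 and 863 CPM with TNFa, against 1019, 1003 and 933 CPM with PBS, without overlap.

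Cdc20, which activates the APC/C at the onset of anaphase, stood at 285, 265 and 274 CPM with TNFa, against 338, 332 and 298 CPM with PBS (log2 fold change -0.23 ± 0.10, edgeR adjusted p = 0.564). Ube2c stood at 376, 415 and 377 CPM with TNFa, against 457, 464 and 429 CPM with PBS (-0.21 ± 0.10, adjusted p = 0.612). Both were separated without overlap, and for Ube2c the TNFa library closest to PBS was replicate 5. Without that library Ube2c had the smallest p of the 40, with a log2 fold change of -0.26 ± 0.08 (adjusted p = 0.254). Pttg1, securin, the inhibitor of the protease that separates sister chromatids, had a log2 fold change of -0.11 ± 0.13. The 3 genes summed to 797, 849 and 789 CPM with TNFa, against 973, 947 and 876 CPM with PBS. The 16 subunits and adaptors of the APC/C itself, whose transcripts are not restricted to mitosis, had a median log2 fold change of 0.03 with 6 negative, and of -0.02 with 9 negative without TNFa replicate 5. None passed, and the smallest p-values were those of Anapc2 (log2 fold change -0.22), Anapc10 (0.25) and Cdc27 (0.15).

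None of the 4 spindle checkpoint genes passed. Bub1b, which encodes the checkpoint protein BubR1, stood at 192, 159 and 204 CPM with TNFa, against 230.2, 206 and 236 CPM with PBS (log2 fold change -0.28 ± 0.12, edgeR adjusted p = 0.575; -0.18 without TNFa replicate 5). Bub1, the related kinase, stood at 144, 95.01 and 125 CPM with TNFa, against 102, 108 and 152 CPM with PBS (0.01 ± 0.19). The ranges of the Bub1 groups overlapped over most of their width. Ttk, the kinase Mps1 that starts checkpoint signalling, had a log2 fold change of 0.09 ± 0.14, and Mad2l1, the APC/C inhibitor Mad2, of -0.17 ± 0.12.

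Among the 6 kinetochore genes the median log2 fold change was -0.11, near that of all members. Cenpa, the centromeric histone, had a log2 fold change of -0.09 ± 0.10. Ndc80 and Nuf2, partners in the complex that holds microtubules, had log2 fold changes of -0.13 ± 0.11 and -0.15 ± 0.13, and Kif2c, a kinesin that takes microtubules apart, had -0.13 ± 0.16. Cenpe, a kinesin that moves chromosomes to the spindle equator, stood at 142, 169 and 125 CPM with TNFa, against 152, 139 and 147 CPM with PBS (-0.01 ± 0.13). Cenpf, named after its values were seen, stood at 119, 172 and 120.4 CPM with TNFa, against 120, 119 and 120 CPM with PBS. Its positive log2 fold change of 0.20 ± 0.15 came with 1 high library, replicate 5, while the other 5 libraries lay within 2 CPM of each other.

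The spindle assembly genes Tpx2 (activator of Aurora A), Kif11 (the motor that separates the poles), Hmmr, Dlgap5 and Nusap1 (microtubule-binding proteins) had log2 fold changes from -0.11 to -0.04. Among midzone and cytokinesis genes, Anln stood at 57.8, 45.3 and 56.6 CPM with TNFa, against 59.5, 60.7 and 76.8 CPM with PBS (-0.30 ± 0.15, edgeR adjusted p = 0.652; -0.20 without TNFa replicate 5). The gap between the Anln groups was narrow and PBS replicate 3 was high. Prc1, which bundles midzone microtubules, had a log2 fold change of -0.15 ± 0.10, and Kif23 and Racgap1, the 2 parts of centralspindlin, had -0.16 ± 0.15 and -0.23 ± 0.12. Without TNFa replicate 5 these were -0.01 for Kif23 and -0.12 for Racgap1. Kif4, the midzone kinesin, lay above PBS in each TNFa library (0.13 ± 0.10). Ect2, the exchange factor that activates RhoA for the contractile ring, had 0.19 ± 0.19, and Kif20a, a midzone kinesin that carries the passenger complex, had -0.25 ± 0.19.

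Chromosome structure genes had a median of 0.01. Top2a, topoisomerase II alpha, which untangles sister chromatids, stood at 662, 681 and 678 CPM with TNFa, against 637, 590 and 646 CPM with PBS (log2 fold change 0.11 ± 0.09, edgeR adjusted p = 0.792), the TNFa libraries being the higher. Mki67, the gene of the proliferation marker Ki-67 that coats mitotic chromosomes, stood at 409, 573 and 425 CPM with TNFa, against 518, 401 and 505 CPM with PBS. Its groups covered each other, with a log2 fold change of -0.02 ± 0.15. The condensin I subunits Ncapg and Ncaph had log2 fold changes of 0.04 ± 0.11 and -0.20 ± 0.16. For Ncaph it was -0.03 without TNFa replicate 5.

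TNFa replicate 5 was the lowest of the 6 libraries for 25 of the 40 genes and the highest for 5, where among all 5965 tested genes with a mean of at least 30 CPM it was lowest for 38.5% and highest for 25.7%. The median deviation of the 40 from the PBS mean, on the log2(CPM + 2) scale, was -0.09, -0.23 and -0.07 in TNFa replicates 4, 5 and 6. In PBS replicates 1, 2 and 3 it was 0.02, -0.07 and 0.02, so 2 of the TNFa libraries were close to PBS replicate 2. Kif20a, named after its values were seen, showed the largest gap: 210, 125 and 228 CPM with TNFa, against 221, 213 and 238 CPM with PBS. Without replicate 5 its log2 fold change was -0.03 ± 0.09. Other genes moved the opposite way without it, to -0.22 for Pttg1, -0.19 for Mki67 and -0.16 for Birc5.

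The mitosis genes did not all deviate in the same direction in that library. Against the mean of TNFa replicates 4 and 6 its log2 level was lower for 27 members and higher for 13, from -0.80 for Kif20a to 0.52 for Cenpf, and Mki67 and Cenpe were on the high side (0.46 and 0.34). By function its median deviation from PBS was -0.46 for the midzone and cytokinesis genes and 0.03 for the chromosome structure genes. The same library had 4.18% of its counts in 83 ribosomal protein genes, against 2.60% to 2.92% in the other 5, and the lowest voom quality weight, 0.31 against 0.88 to 1.59. Over 5797 genes with a mean of at least 30 CPM its gap from replicates 4 and 6 had a Spearman correlation of -0.39 with transcript length. Over the 40 members that correlation was -0.03, and with GC content -0.01; these are across genes of the same libraries and are descriptions. The part of the library's composition in the mitosis values was not tested.

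**Figure D4:**
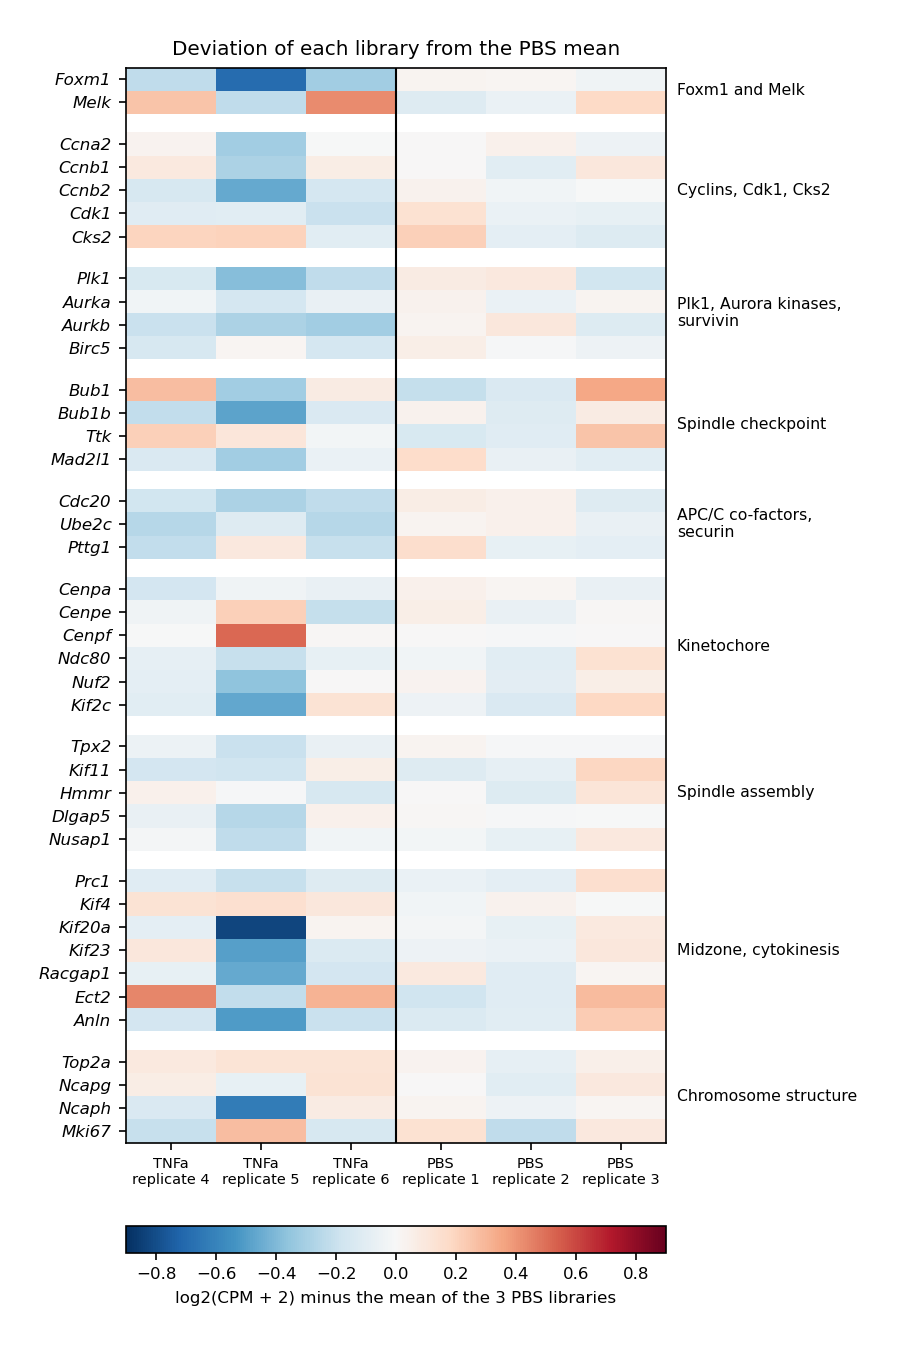
Deviation of each library from the mean of the 3 PBS libraries, log2(CPM + 2), for the 40 genes by function; blue is lower, red is higher. The TNFa replicate 5 column holds both the deepest blue (Kif20a, Foxm1, Ncaph) and the strongest red (Cenpf), while the other TNFa columns are paler.

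Without TNFa replicate 5 the lean towards lower values was smaller in the median and in the number of negative changes. The median log2 fold change of the 40 was -0.06, with 28 negative (70% of the 40; 50.8% of all tested genes). Then 13 of the 40 had both TNFa libraries below each PBS library (14.0% of all tested genes), where all libraries gave 10 (8.35%). Both TNFa libraries were above each PBS library in 4 of the 40 (13.5% of all), where all libraries gave 2 (6.85%). At an unadjusted p under 0.05 there were 4 members lower (5.56% of all tested genes), namely Foxm1, Aurkb, Cdc20 and Ube2c, and 2 higher (5.23%), namely Melk and Ect2, both named after their values were seen. Melk stood at 86.9, 61.5 and 98.3 CPM with TNFa, against 66.7, 69.3 and 82.5 CPM with PBS. Ect2 stood at 127, 79.5 and 116 CPM with TNFa, against 82.2, 86.3 and 114 CPM with PBS. In both genes replicate 5 was the lowest of all libraries and replicates 4 and 6 were above the PBS range. Without it the log2 fold changes were 0.35 for Melk and 0.37 for Ect2. No member passed the adjusted threshold without replicate 5 (0.406% of all tested genes did; smallest adjusted p = 0.254, edgeR).

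A list of 97 further mitosis genes had a median and a share of negative changes close to those of the 40. Its log2 fold changes were negative for 74, the median was -0.12, and none passed. At an unadjusted p under 0.05 there were 8 lower (8.2% of the list, 4.63% of all tested genes) and 1 higher (3.68% of all). In 13 genes each TNFa library lay below each PBS library (13.4% of the list, against 25% of the 40 and 8.35% of all). In 1 gene each lay above (6.85% of all). Without TNFa replicate 5 the median was -0.08, with 70 negative. Kif22, a kinesin that pushes chromosome arms, stood at 203, 178 and 201 CPM with TNFa, against 267, 245 and 260.4 CPM with PBS (log2 fold change -0.41 ± 0.10, edgeR adjusted p = 0.280). Incenp, the scaffold of the chromosomal passenger complex, stood at 214, 198 and 232 CPM with TNFa, against 262, 262 and 259.7 CPM with PBS (-0.29 ± 0.10, adjusted p = 0.454). Cdca8, its subunit borealin, stood at 182, 176 and 181 CPM with TNFa, against 229, 214 and 207 CPM with PBS (-0.27 ± 0.10, adjusted p = 0.463). Incenp, Cdca8 and Aurkb, 3 of the 4 subunits of that complex, were each lower without overlap (8.35% of all tested genes were), and Birc5 was not. Incenp and Cdca8 were named for their small p-values, so this count is not a result about the complex.

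The neighbouring cell cycle genes were set beside these. Of 50 DNA replication and S phase genes, 36 had negative log2 fold changes with a median of -0.05, none passed, and 3 were lower (6.0%, near the 4.63% of all tested genes) and 1 higher (3.68% of all) at an unadjusted p under 0.05. Each TNFa library lay below each PBS library in 8 of the 50 (16.0%, against 8.35% of all tested genes). Each lay above in 3 (6.85% of all). Without TNFa replicate 5 the median was -0.02, with 31 negative. The summed CPM of the 40 mitosis genes was 0.774, 0.814 and 0.774 times that of the S phase genes in TNFa replicates 4, 5 and 6, and 0.802, 0.788 and 0.820 times in PBS replicates 1, 2 and 3, with overlap. The difference between the 2 sets was not tested. The smallest p-values in the S phase list included those of Pold1, a DNA polymerase delta subunit (log2 fold change -0.36), and E2f2, an activator of S phase genes (-0.40). Among 17 tested genes of Cdc25 phosphatases, Wee kinases, CDK inhibitors and G1 cyclins 1 passed (0.102% of all tested genes did). Their log2 fold changes ran from -1.02 to 0.90 with 9 of 17 negative, and 3 were lower and 2 higher at an unadjusted p under 0.05 (4.63% and 3.68% of all). This was Cdc25b, the phosphatase that removes the inhibitory phosphates from Cdk1 at mitotic entry, which fell to 114, 101 and 122 CPM with TNFa, against 187, 185 and 191 CPM with PBS (log2 fold change -0.74 ± 0.11, edgeR adjusted p = 0.0475). Its groups were far apart, and its log2 fold change was between -0.80 and -0.67 with any 1 library left out. It passed the adjusted threshold without TNFa replicate 5 (adjusted p = 0.0111) but not without any of the other 5, the largest adjusted p being 0.371 without PBS replicate 1.

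**Figure D5:**
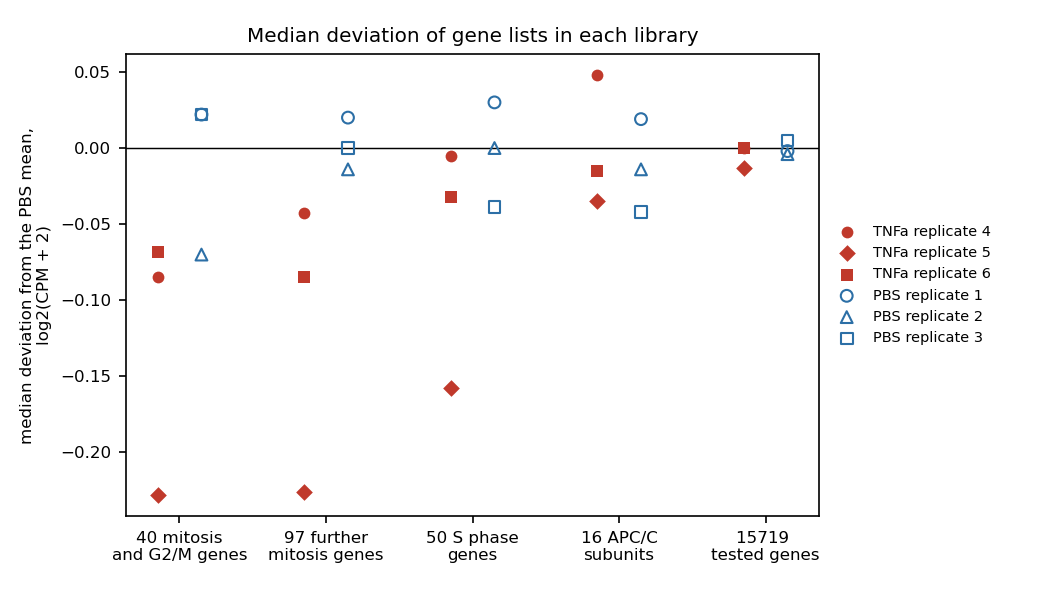
Median deviation of 5 gene sets from the PBS mean, log2(CPM + 2), in each library (TNFa filled red, PBS open blue). TNFa replicate 5 is the lowest library for the 40 mitosis genes and the 97 further ones, at -0.23 in both, and for the S phase genes, at -0.16. The 18 ILC2 markers, not drawn, had -0.22 in that library. The tested genes as a whole stay near 0 after TMM scaling.

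Markers of ILC2s were abundant in each library. The 18 of them summed to 12620 to 13620 CPM with TNFa and 12030 to 13340 CPM with PBS, led by Il5 and Il2ra. Of the 18, 12 had negative log2 fold changes, with a median of -0.17. At an unadjusted p under 0.05 there were 6 lower (33.3% of the 18; 4.63% of all tested genes) and 4 higher (3.68% of all). The adjusted threshold was passed by 1 of the 18 (0.102% of all tested genes). This was the costimulatory receptor Icos, named after its values were seen, which fell to 525, 480.3 and 545 CPM with TNFa, against 940, 809 and 914 CPM with PBS (log2 fold change -0.78 ± 0.10, edgeR adjusted p = 0.0363, and 0.371 without PBS replicate 1). Markers of other cells that could divide in the culture were low for lymphocytes. The 9 T cell markers summed to 107 to 110.1 CPM with TNFa and 125 to 143 CPM with PBS, led by Cd3g and Foxp3, with 7 of 9 negative; Cd8a had at most 34 counts in a library. The 4 tested B cell markers summed to 13.8 to 16.5 CPM with TNFa and 20.2 to 20.6 CPM with PBS, led by Cd79b and Ms4a1, with 4 of 4 negative and Cd79a at 0 counts in TNFa replicate 5. The 4 tested NK and ILC1 markers, led by Ncr1 and Prf1, summed to at most 7.75 CPM with TNFa and 5.75 CPM with PBS, with Klrb1c at 0 counts in 3 libraries. Mast cell and basophil markers, led by Tpsab1 and Cma1, summed to 1298 to 1474 CPM with TNFa and 1229 to 1390 CPM with PBS. Myeloid markers, led by Chil3 and Lyz2, summed to 14.6 to 53.5 CPM with TNFa and 43.8 to 99.8 CPM with PBS. Structural cell markers, led by Pecam1 and Scgb1a1, summed to 145 to 204 CPM with TNFa and 122 to 153 CPM with PBS, with Col1a1 at 0 counts in 3 libraries. Their ranges overlapped and single genes differed: Scgb1a1 had 81.0, 0.187 and 46.1 CPM with TNFa, against 0.0341, 6.09 and 8.07 CPM with PBS. Epcam, an epithelial marker named after its values were seen, had 389, 372 and 440 counts with TNFa, against 786, 858 and 827 counts with PBS (log2 fold change -0.95), the lower in each TNFa library, and did not pass the adjusted threshold. Of the 5 tested structural markers Epcam alone was negative and 4 were positive, with a median log2 fold change of 0.70. Without TNFa replicate 5 that median was -0.10, with 3 negative. The T cell and B cell sums were lower in each TNFa library, as the summed mitosis genes were, and their part in the mitosis values was not tested.

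Among the 40, 10 genes overlap another gene of the table: Foxm1, Ccna2, Plk1, Cdc20, Nusap1, Prc1, Kif4, Kif20a, Ncapg and Mki67. Foxm1 overlaps Tex52 on the same strand, and all the other partners lie on the opposite strand. The strand setting of the counting is not given in the sources used here, so reads of opposite-strand pairs may have been divided between them. Reads of Foxm1 and Tex52 may have been divided under either setting, and Tex52 was not among the tested genes. The most abundant partner was Elovl1, opposite Cdc20, with 138 ± 10.1 CPM with TNFa and 161 ± 16.6 CPM with PBS (SD, n = 3 each).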

How the data were processed

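RNA of cultured lung ILC2s was sequenced in 6 libraries, 3 with TNFa and 3 with PBS. The authors deposited estimated counts per gene, unscaled between libraries, made by Partek's expectation-maximization quantification, per the file headers and name; reads matching several genes are divided among them. The submitters' processing notes list CASAVA 1.8.2, STAR, Partek and the build mm10, with no order. No annotation release or strand setting is given in the sources used here. Totals ran from 25089415 to 32487004 counts per library. The table held 0 further value columns.

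Differences were tested with edgeR 4.0.16 (R 4.3.3) after rounding the estimated counts: filterByExpr (minimum count 10, minimum total 15; 15719 genes kept), TMM scaling, robust quasi-likelihood fit, Benjamini-Hochberg adjustment over all tested genes, threshold 0.05. SEs come from the F statistic and 95% intervals from the moderated degrees of freedom. Alternatives used DESeq2 1.42.0, limma 3.58.1 (voom with sample quality weights), RLE factors, 2 other filters and leaving out each library. The fit's recovery of fold changes was checked on counts simulated from the mean levels and dispersions of these data. The simulation had no outlying library such as TNFa replicate 5 and no correlation between genes. Levels per kilobase used the principal GENCODE M21 transcript of a gene (the longest where tied). Promoter windows are RefSeq's, GRCm38.p6. The members, gene lists and alternatives were chosen with earlier results of these data known. All 40 members are named. Library values are given for the 8 smallest p-values, the 3 smallest changes and the 3 most abundant per kilobase. They are also given for Ccnb1 and Top2a, which fall outside these rules, and for others as stated. From each further list genes past the threshold were named, otherwise the 3 with the smallest p, and from marker lists the 2 most abundant; a gene that this rule picks in the S phase list is not reported here.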

Additional observations from a re-analysis of the deposited data

How the results depend on the processing

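No mitosis gene passed in any of the 11 alternatives run (0 of 40 in each), and 31 of the 40 kept the sign of their change in all of them. The number of genes called over the whole table depended on the setting: it was 16 as reported, 218 with DESeq2, 78 with voom and sample quality weights, 3 with no filter on low counts, 25 with a filter at a mean of 5 CPM, and from 1 to 67 when one library was left out, 67 being without TNFa replicate 5. Leaving out one library changes both the spread and the number of libraries, and the cause of the differing counts was not tested. The median log2 fold change of the 40 stayed between -0.14 and -0.06 when one library was left out. In alternatives added after seeing the data, members lower at an unadjusted p under 0.05 ranged from 1 to 4 with one library left out, and negative ones from 27 to 33. Leaving out TNFa replicate 5 gave 2 members higher at an unadjusted p under 0.05 (5.23% of all tested genes), against 0 with all libraries (3.68%). Both TNFa libraries were above PBS for 4 members, against 2, while the share of all tested genes rose from 6.85% to 13.5%. They lay below for 13, against 10, while that share rose from 8.35% to 14.0%. Cdc25b and Icos were run under the same alternatives, also after seeing the data; each lost its call when any library other than TNFa replicate 5 was left out (5 of 6), and with no filter on low counts (adjusted p = 0.0846 and 0.0636).

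Of the 9 genes whose sign turned, Cenpe was at 0.005 with DESeq2 and 0.005 with RLE factors, and at 0.017 with the filter at 5 CPM, where Mki67 was at 0.007. Ccnb1 was at 0.063 with voom. With one library left out the log2 fold changes ranged from -0.136 to 0.207 for Bub1, -0.131 to 0.088 for Cenpe, -0.188 to 0.069 for Mki67, -0.104 to 0.074 for Ccnb1, -0.157 to 0.011 for Ccna2, -0.288 to 0.012 for Kif2c, -0.185 to 0.002 for Kif11, -0.099 to 0.018 for Hmmr and -0.010 to 0.095 for Ncapg. No paired analysis was possible because the replicate numbers of the groups are not shared (1 to 3 and 4 to 6).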
